A study of Mus musculus with 12 samples.

Results

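MicroRNAs were compared between the irradiated lungs of mice fed flaxseed and the irradiated lungs of mice fed a control diet, 3 mice in each group and 6 of the 12 mice in the study. Mice 15, 17 and 18 ate a diet with 10% flaxseed for 21 days and received 13.5 Gy of radiation, and mice 7, 8 and 9 received the same dose on a control diet. All were C57BL/6, and lung tissue was taken 48 h after exposure, so the groups shared the radiation and differed in diet. The age of the mice, the field that was irradiated and the make-up of the control diet are not named by the sources used here. The other 6 mice were not irradiated, 3 on control diet (mice 2, 4 and 5) and 3 on flaxseed (mice 11, 12 and 13), and served to set the diet difference with radiation against that without. A group was chosen by the diet and radiation in its sample labels, and all microRNA assays of both primer pools were included. Of 312 microRNA assays with a name and a value, 296 entered the test, each detected in 2 or 3 mice of every group. Pool A supplied 181 of them and pool B 115.

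MicroRNAs are short RNAs that guide a silencing complex to messenger RNAs, and the match is led by the seed, bases 2 to 8 of the mature strand. Each hairpin precursor yields a 5p and a 3p arm, which can differ widely in abundance. After DNA damage the transcription factor p53 switches on the miR-34 genes, and circulating lymphocytes are among the cells most easily killed by radiation. Flaxseed is rich in lignans and in omega-3 fatty acid, and has been studied as a diet that protects the lung from radiation injury.

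The mature strands of 12 of the 15 microRNAs that passed the test are shown because each carries a different seed, printed in capitals. Sequences run 5′ to 3′ and are those of RefSeq on build GRCm38.p6, matched by name.
miR-34a-5p: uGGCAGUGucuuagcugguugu
miR-342-3p: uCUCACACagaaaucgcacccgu
miR-503-5p: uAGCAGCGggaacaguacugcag
miR-20b-5p: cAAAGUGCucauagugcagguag
miR-130b-3p: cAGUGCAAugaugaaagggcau
miR-30a-3p: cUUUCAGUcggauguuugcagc
miR-200c-3p: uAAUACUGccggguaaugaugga
miR-381-3p: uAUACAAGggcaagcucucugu
miR-339-5p: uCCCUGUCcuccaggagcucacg
miR-672-5p: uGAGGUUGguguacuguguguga
miR-1198-5p: uAUGUGUUccuggcuggcuugg
miR-1903: cCUUCUUCuucuuccugagaca
The other 3 were miR-421, miR-150 and miR-1.

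Relatives that share a seed with some of these are shown next because they bear on how far a change was shared within a family.
miR-20a-5p: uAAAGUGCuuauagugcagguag
miR-106a-5p: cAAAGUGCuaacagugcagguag
miR-130a-3p: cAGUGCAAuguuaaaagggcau
miR-301a-3p: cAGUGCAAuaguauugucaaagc
miR-30e-3p: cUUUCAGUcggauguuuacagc
miR-200b-3p: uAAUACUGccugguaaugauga
miR-34b-5p: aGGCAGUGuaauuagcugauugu
In this set miR-30e-3p differs from miR-30a-3p by 1 base, and miR-20a-5p and miR-106a-5p each differ from miR-20b-5p by 2 bases, all outside the seed.

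Levels were read by quantitative PCR in nanolitre reactions as relative threshold cycles (Crt) and are given here on the log2 scale, relative to the mean of the 260 microRNA assays detected in all 12 mice, with a higher value for more RNA. The irradiated control mice had 307 to 309 detected assays and the irradiated flaxseed mice 311 or 312, a difference of 3.67 with an exact two-sided permutation p of 0.1, the smallest that 3 mice against 3 can give. The mean Crt was 19.74, 19.74 and 19.76 in mice 7, 8 and 9 and 19.98, 19.44 and 19.66 in mice 15, 17 and 18. Spearman correlations of levels were 0.983 to 0.994 between irradiated mice of the same diet and 0.963 to 0.980 between diets. Between 45.2% and 48.2% of the Crt values carried a 4th decimal in the irradiated flaxseed mice, against 0% to 0.621% in the irradiated control mice. The sources used here do not say why, so whatever made this difference cannot be told apart from diet. In unirradiated mice the same split ran the other way, with 39.0% to 42.1% on control diet and 0.643% to 0.656% on flaxseed. As a check of the tissue, miR-126, of endothelial cells, was at 8.57 to 9.83 in the 6 irradiated mice, and miR-122, which defines liver, had no value in any mouse.

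Flaxseed feeding went with a change in 15 of 296 assays in irradiated lung. Higher in the flaxseed group were miR-381, miR-1, miR-421, miR-30a-3p, miR-200c, miR-339-5p and miR-34a, by 1.64-fold to 6.63-fold. Lower were miR-1903, miR-150, miR-503, miR-20b, miR-1198, miR-342-3p, miR-130b and miR-672, by 1.96-fold to 4.96-fold. By limma with Benjamini-Hochberg adjustment over all assays, the 15 calls (adjusted p under 0.05) were 5.07% of those tested, with 7 higher (2.36%) and 8 lower (2.7%). At an unadjusted p under 0.05 there were 64 (21.6%). The 3 flaxseed and 3 control mice did not overlap in any of the 15 called assays, which is read against 112 of 296 assays (37.8%) without overlap, 45 higher (15.2%) and 67 lower (22.6%). The median difference over all assays was 0.01. The count was 4 (1 higher, 3 lower) when levels were scaled to the control RNAs and 1 with no normalization, 14 (5 higher, 9 lower) after quantile normalization, 48 in a fit of the 6 irradiated mice alone and 66 with array weights. Leaving out mouse 7 or mouse 8 left 3 calls, mouse 9 left 9, mouse 15 or mouse 18 left 7 and mouse 17 left 6, whereas leaving out mouse 11 gave 24. Of the 15, miR-503, miR-421 and miR-1198 were called whichever of the 12 mice was left out, and each of the others lost its call without at least 1 irradiated mouse.

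**Figure D1:**
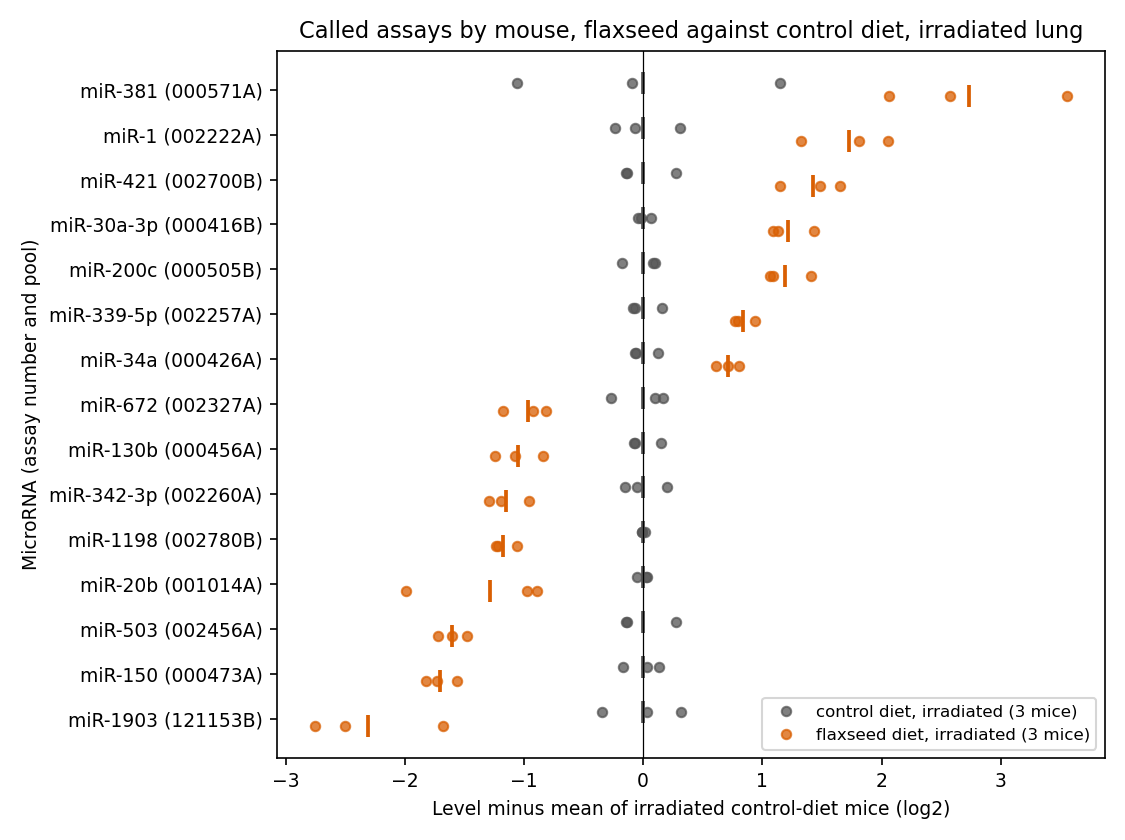
Level of each called assay in each irradiated mouse, minus the mean of the 3 irradiated control-diet mice (horizontal axis, log2), for control diet (grey) and flaxseed diet (orange); points are mice and vertical ticks are group means. In each of the 15 assays the flaxseed mice lie on 1 side of all control mice, with miR-381 (assay of human name) farthest above at 2.73 and miR-1903 farthest below at -2.31.

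Of microRNAs linked to the DNA damage response, miR-34a and miR-421 were higher in the flaxseed mice. miR-34a, a direct target of p53 that slows the cell cycle, was at 3.18, 2.98 and 3.09 in flaxseed mice 15, 17 and 18 and at 2.30, 2.32 and 2.50 in control mice 7, 8 and 9. The lowest flaxseed mouse was above the highest control mouse, with narrow spreads in both groups. The difference was 0.71 ± 0.17 (SE), or 1.64-fold, with a limma adjusted p of 0.0333. The call was lost in 13 of 30 alternatives, among them quantile normalization, the median assay, scaling within each pool, the authors' normalized values and leaving out any of the 6 irradiated mice (limma adjusted p of up to 0.467), while the difference stayed between 0.63 and 0.81. On control diet, miR-34a levels of irradiated and unirradiated mice overlapped. On flaxseed, the irradiated mice had less miR-34a than the unirradiated mice. miR-421, which has been reported in human cells to repress the damage kinase ATM, was at -2.64, -2.14 and -2.31 in flaxseed mice and at -3.92, -3.93 and -3.52 in control mice. All 3 flaxseed mice were higher, by 1.43 ± 0.20 or 2.69-fold, with a limma adjusted p of 0.00375. Its levels in unirradiated mice, from -3.04 to -2.56 on both diets, lay above those of the irradiated control mice. miR-421 is encoded on chrX:103572921-103572996, inside the span of the long noncoding RNA Ftx.

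The rest of the p53-linked list was not called. Of its 12 tested assays, 1 rose, miR-34a, and 0 fell, where 5.07% of all 296 assays were called. The median difference was 0.16. The relatives of miR-34a gave 0.98 ± 0.42 for miR-34b-5p, 0.49 ± 0.51 for miR-34c and 0.02 ± 0.17 for miR-34b-3p. miR-449a was at -0.21 ± 0.58. miR-449b was at -1.04 ± 0.43, lower in flaxseed mice without overlap and without a call. Only miR-34a among the 12 listed assays had groups that did not overlap, against 37.8% of all assays. miR-192, miR-215 and miR-145, which p53 also raises, were at 0.14 ± 0.17, 0.71 ± 0.42 and 0.30 ± 0.18.

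Of the microRNAs of lymphocytes, miR-150 and miR-342-3p fell. miR-150, abundant in mature B and T cells, was at 3.64, 3.38 and 3.47 in flaxseed mice and at 5.24, 5.34 and 5.03 in control mice. The groups stood far apart relative to their spread, and miR-150 fell by 1.70 ± 0.29 to 0.307 of the control level (limma adjusted p = 0.0102). miR-342-3p, also abundant in lymphocytes and encoded within the Evl gene at chr12:108658620-108658718, was at 0.27, -0.06 and 0.04 in flaxseed mice and at 1.44, 1.08 and 1.18 in control mice. It fell by 1.15 ± 0.23 (limma adjusted p = 0.0210), again with no overlap. Of 5 tested lymphoid assays 2 fell and 0 rose, against 2.7% of all assays called lower. The median difference was -1.15, the value of miR-342-3p itself, against 0.01 over all assays. The list was chosen with earlier results of these data known, so these shares are a description and carry no test. miR-181a and miR-29a were at 0.21 ± 0.33 and -0.15 ± 0.24, and miR-155, which activated lymphocytes and macrophages raise, was at -2.03 ± 2.36. In tissue RNA, fewer cells of a type and less RNA per cell cannot be told apart.

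The myeloid list did not move in a single direction. miR-142-3p, made by all blood-forming cells, was at 4.09, 3.76 and 4.05 in flaxseed mice and at 5.71, 5.52 and 5.72 in control mice. Although the groups did not overlap, the difference of -1.68 ± 0.60 was not called (limma adjusted p = 0.140). Its other arm, miR-142-5p, gave -1.77 ± 0.61 and was also lower in all 3 flaxseed mice without a call. miR-223, of neutrophils and other myeloid cells, was at 1.34 ± 0.46 by its pool B assay and 0.47 ± 0.41 by its pool A assay. It was higher in all 3 flaxseed mice by each. miR-146a, a brake on innate immune signalling, was at -0.04 ± 0.25, and miR-451, of red blood cells, at -0.59 ± 0.78 with overlapping groups. Of the 5 tested myeloid assays 0 were called, against 5.07% of all assays. The summed level of the list was 7.73 to 7.85 in control and 7.81 to 8.00 in flaxseed mice.

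**Figure D2:**
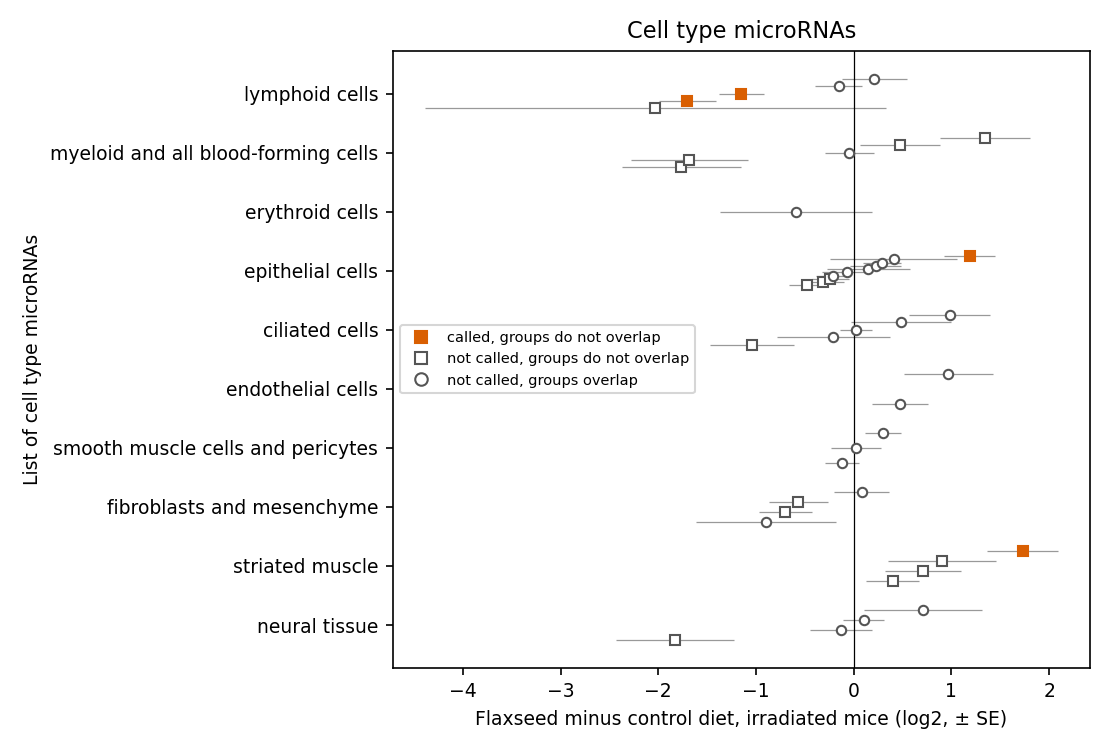
Diet difference in irradiated mice (horizontal axis, log2, with bars of 1 SE) of each tested assay in 10 lists of cell type microRNAs; filled symbols passed the test and squares mark groups that did not overlap. The called assays are miR-150 and miR-342-3p in the lymphoid list, both lower, and miR-200c and miR-1 by a single assay each, both higher.

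miR-503, miR-20b and miR-130b fell, each as the single call of its family. miR-503, a relative of miR-16 that represses cyclins, had the smallest p of all assays. It was at -2.56, -2.68 and -2.44 in flaxseed mice and at -1.09, -1.10 and -0.68 in control mice, so that the groups were more than a full cycle apart. It fell by 1.60 ± 0.19 on the log2 scale (limma adjusted p = 0.00199). The unirradiated mice lay between these groups, at -1.58, -1.60 and -1.74 on control diet and at -2.21, -1.68 and -1.89 on flaxseed.

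miR-503 is encoded at chrX:53053984-53054054 in a cluster with miR-322, miR-351, miR-450 and miR-542. Its neighbour miR-351, 631 bases away, was lower in all 3 flaxseed mice by the assay of rat name, at -1.34 ± 0.41 without a call (limma adjusted p = 0.104). A second miR-351 assay, which had no value in unirradiated flaxseed mice and so was not in the fit, was lower by 0.973 with an exact permutation p of 0.1. miR-322, 201 bases from miR-503, went the other way, at 0.58 ± 0.39, and its other arm at 0.57 ± 0.28. An assay of mouse name for miR-424, matched to no gene here and left out of the list, was at -0.61. It was lower in flaxseed mice without overlap and without a call, so these assays do not give a single direction. miR-542-3p was at 0.89 ± 0.44, miR-450a at -0.19 ± 0.24 and the other arm of miR-503 at -0.41 ± 0.29, with overlapping groups in each. In the list of the miR-15/16 family and the miR-503 cluster, 1 of 10 tested assays fell and 0 rose, where 5.07% of all assays were called. miR-16 itself was at 0.17 ± 0.27.

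miR-20b, a member of the miR-17 family that promotes proliferation, was at -1.83, -1.91 and -2.93 in flaxseed mice and at -0.92, -0.91 and -0.996 in control mice. Mouse 18 was the lowest, and the groups were apart without it too. miR-20b fell by 1.28 ± 0.27 (limma adjusted p = 0.0222), and without mouse 18 by 0.931. The other 5 tested assays with its seed ranged from -0.32 to 0.30, namely miR-17 (-0.32), miR-20a (-0.31), miR-106b (-0.24), miR-93 (0.16) and miR-106a (0.30). miR-106a is encoded 311 bases from miR-20b on chromosome X. Across the miR-17, miR-106 and miR-25 clusters 1 of 11 tested assays fell and 0 rose, with a median of -0.24, where 5.07% of all assays were called. The list left out the other arms of these hairpins. Those of miR-106b (-0.96), miR-17 (-0.92), miR-20a (-0.64) and miR-93 (-0.31) were lower in flaxseed mice without overlap and without a call. That of miR-18a was at 0.05 with overlapping groups. Of all assays 22.6% were lower without overlap.

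miR-130b was at -2.08, -2.25 and -1.85 in flaxseed mice and at -0.86, -1.09 and -1.08 in control mice, without overlap, and fell by 1.05 ± 0.21 (limma adjusted p = 0.0210). miR-301b, whose gene lies 258 bases away on chromosome 16, was at 1.39, 1.69 and 1.27 in flaxseed mice and at 0.15, 0.09 and 1.09 in control mice. The neighbours thus differed in sign, although the 1.01 ± 0.40 of miR-301b was not called. miR-130a and miR-301a, with the same seed, were at 0.07 ± 0.19 and 0.49 ± 0.30, and both had overlapping groups.

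**Figure D3:**
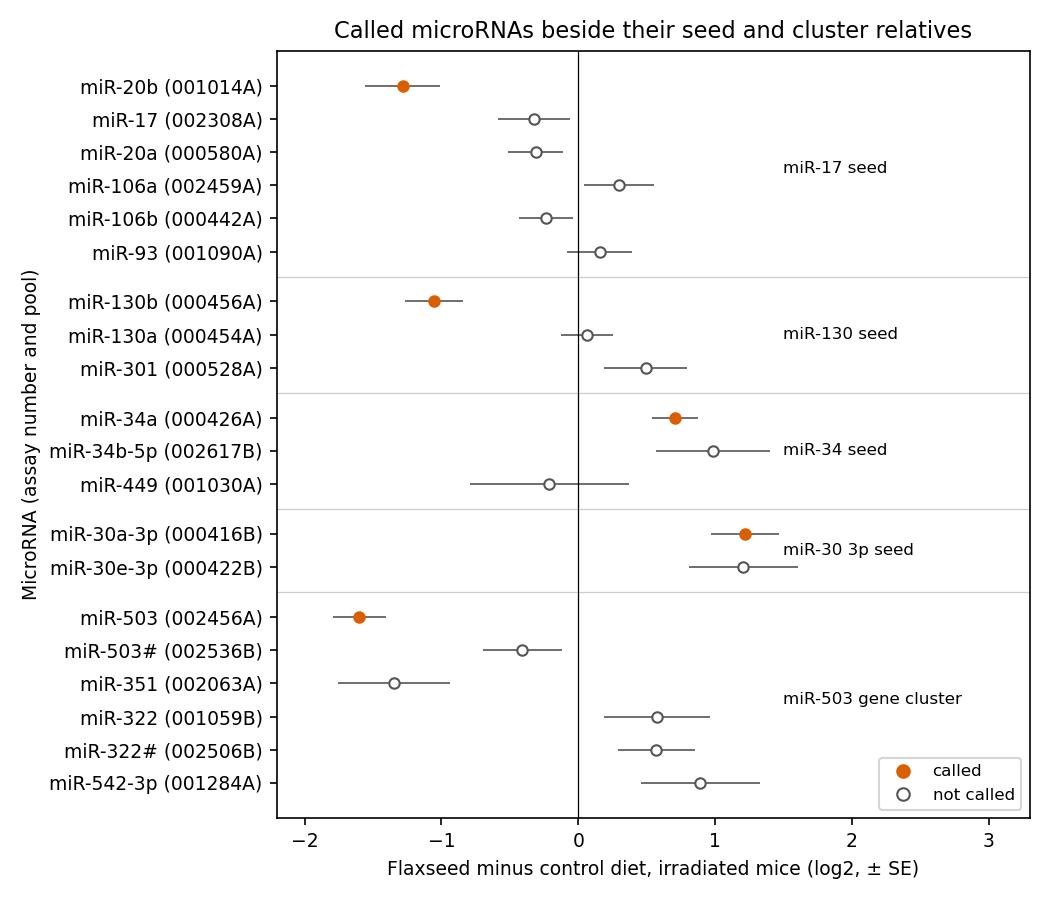
Diet difference in irradiated mice (horizontal axis, log2, with bars of 1 SE) of called microRNAs (filled) beside some assays with the same seed or from the same gene cluster (open). The cluster neighbours miR-301b (1.01) and miR-92 (-0.60) are not drawn. The relatives miR-449b (-1.04) and the other arm of miR-30d (-0.05) are not drawn either, nor are miR-424 (-0.61) and the other arms of the miR-17 family. miR-20b, miR-130b and miR-503 lie below 0. The relatives drawn beside them lie between -0.41 and 0.89, apart from miR-351 at -1.34. miR-30a-3p and miR-30e-3p, both read in pool B, lie together at 1.22 and 1.21.

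Epithelial microRNAs gave a single call that rests on 1 of a pair of assays. miR-200c, which keeps epithelial identity by repressing the ZEB factors, was at 5.96, 5.94 and 6.28 in flaxseed mice and at 4.69, 4.97 and 4.95 in control mice by its pool B assay. By this assay it rose by 1.19 ± 0.26 (limma adjusted p = 0.0223). The call was lost in 10 of 30 alternatives, among them quantile normalization and the authors' normalized values, and the difference went as low as 0.63. The pool A assay of the same name read 4.68, 4.80 and 4.75 in flaxseed mice and 4.90, 5.09 and 4.95 in control mice. All flaxseed mice were thus lower by that assay, at -0.24 ± 0.19, which was not called. miR-200b, with the same seed, was at -0.48 and -0.31 by its pair of assays, miR-429 at 0.41, and miR-141, 337 bases from miR-200c, at 0.22. Of 10 tested epithelial assays 1 rose and 0 fell, with a median of 0.04, where 5.07% of all assays were called. miR-375 was at 0.29 ± 0.19.

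miR-30a-3p, the less studied arm of a hairpin that is abundant in lung, was at 5.50, 5.46 and 5.80 in flaxseed mice and at 4.43, 4.32 and 4.35 in control mice. It rose by 1.22 ± 0.25, or 2.33-fold (limma adjusted p = 0.0210). miR-30e-3p, which differs from it by 1 base, was at 5.65, 5.55 and 5.75 against 4.82, 4.30 and 4.21. The difference of 1.21 ± 0.40 was as large but was not called (limma adjusted p = 0.131), and whether the pair of assays reads each other's target was not tested. The 5p arm from the same hairpin, miR-30a-5p, was at 0.14 ± 0.20 with overlapping groups. The rise was not seen in the other arm of miR-30d, at -0.05 ± 0.27 with overlapping groups. The other arm of miR-30b was lower, at -1.03 ± 0.45 without a call. In the miR-30 family 1 of 9 tested assays rose and 0 fell, and of the groups that did not overlap 4 were higher and 1 lower, against 5.07% of all assays called, 15.2% without overlap and higher, and 22.6% without overlap and lower.

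The assays of miR-200c and miR-30a-3p that rose belong to pool B. So do the assay of miR-30e-3p (1.21) and the miR-223 assay with the larger difference (1.34). The 9 pool B assays with the highest mean level, which include those of miR-200c and miR-30a-3p, were all higher in irradiated flaxseed mice, by 0.66 to 4.30. Of the 12 pool B assays with a mean level above 4, 9 were higher and the median difference was 1.01. In pool A at the same level 18 of 39 were higher and the median was -0.05. With levels scaled within each pool, the pool B assays of miR-200c and miR-30a-3p were still called. Such scaling takes out only an offset shared by a whole pool. The part of the pattern at high levels of pool B in these calls was not tested, and the level limit was chosen after the values were seen.

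miR-1, abundant in heart and skeletal muscle, was at 0.65, 0.89 and 0.16 in flaxseed mice and at -0.85, -1.23 and -1.40 in control mice by the assay of human name. It rose by 1.73 ± 0.36, or 3.32-fold (limma adjusted p = 0.0222). A second assay, of rat name, read -0.28, -0.44 and 0.02 against -1.09, -1.33 and -0.99, the same direction at 0.90 ± 0.55 without a call. miR-133a and miR-133b, transcribed with miR-1 and its relatives in muscle, were at 0.71 ± 0.39 and 0.40 ± 0.27. In all 4 tested muscle assays the flaxseed mice were above the control mice, and 1 was called, against 15.2% of all assays without overlap and higher and 2.36% called higher. Of these 4 assays 2 read miR-1, and the list was chosen with earlier results of these data known. The summed level of the list was 2.997 to 3.16 in control mice and 3.68 to 4.20 in flaxseed mice, while miR-206, miR-208, miR-208b and miR-499 had no value in any mouse. Whether muscle tissue in the samples had a part in these values was not tested.

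miR-381, from the imprinted Dlk1-Dio3 locus on chromosome 12, had the largest called difference and disagreeing assays. The assay of human name read -3.58, -2.60 and -4.09 in flaxseed mice and -6.24, -7.21 and -5.01 in control mice, a wide spread in both groups but no overlap. By this assay it rose by 2.73 ± 0.65 (limma adjusted p = 0.0333). The assay of rat name gave -3.70, -4.44 and -3.75 against -2.99, -3.28 and -3.64, lower in all 3 flaxseed mice, at -0.66 ± 0.70. Of the 13 tested assays in the list for the locus 1 rose and 0 fell, with a median of -0.01, where 5.07% of all assays were called. The list left out tested assays from the locus for miR-136 (-0.81), miR-136# (-0.33) and miR-376b# (-0.55), which were lower in all 3 flaxseed mice and not called. Of the tested neighbours closest to miR-381, miR-376b#, 3283 bases away, was the one without overlap. The others were miR-539 at -0.20, miR-544 at 0.39, miR-376c at 0.33, miR-485-3p at -0.36 and miR-495 at -0.12, all with overlapping groups.

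The other 4 called assays shared their seed with no other tested assay that could be matched to a sequence. miR-339-5p was at -0.86, -0.72 and -0.89 in flaxseed mice and at -1.50, -1.74 and -1.73 in control mice, and rose by 0.83 ± 0.18 (limma adjusted p = 0.0222). Its other arm, miR-339-3p, had a Crt of 19.3, 19.1 and 19.4 in flaxseed mice 15, 17 and 18 and none in control mice 7, 8 and 9. No difference is given for miR-339-3p, which was detected in 2 of 3 unirradiated control mice and 1 of 3 unirradiated flaxseed mice and was not in the fit.

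miR-1198 was at -3.08, -3.24 and -3.26 in flaxseed mice and at -2.02, -2.003 and -2.03 in control mice. The control mice were nearly equal and all above the flaxseed mice, and miR-1198 fell by 1.17 ± 0.19 (limma adjusted p = 0.00843). miR-672 was at -1.02, -1.38 and -1.13 against -0.11, -0.04 and -0.48, lower in every flaxseed mouse, and fell by 0.97 ± 0.22 (limma adjusted p = 0.0274). miR-1903, encoded within Nrp1 at chr8:128359241-128359320, was among the scarcest assays at -5.86, -6.93 and -6.68 in flaxseed mice and -3.86, -4.15 and -4.53 in control mice. It fell by 2.31 ± 0.41 (limma adjusted p = 0.0175), with no overlap, and it was not detected in unirradiated flaxseed mouse 13.

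On the genome, 5 of the 14 called assays whose microRNA genes lie on a single chromosome were on chromosome X, namely miR-503, miR-20b, miR-672, miR-1198 and miR-421, with 4 lower and 1 higher. Chromosome X held 30 of the 249 tested assays that could be placed so (12.0%), and 16.7% of those 30 were called against 4.11% elsewhere. The median difference was -0.13 for assays on chromosome X and -0.04 for the others. The position was looked at after the calls were known and carries no test.

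Another 5 assays followed in order of p without passing. miR-185 was at -1.06 ± 0.27, miR-296 at 1.89 ± 0.50, miR-1839-3P at -1.94 ± 0.53, the other arm of miR-16 at -1.08 ± 0.30 and miR-146b by the assay of rat name at -0.67 ± 0.18. Their limma adjusted p ranged from 0.0508 to 0.0628. Of these, miR-185 was at -1.97, -2.51 and -2.27 in flaxseed mice and at -1.02, -1.11 and -1.45 in control mice, without overlap. A second miR-146b assay gave 0.09 ± 0.26.

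MicroRNA names measured by a pair of assays show how far a difference depended on the assay. In 6 of 12 such names both assays pointed the same way, the median gap between their differences was 0.72, and the gaps ran from 0.13 for miR-214 to 3.39 for miR-381. Of the 3 names with a called assay, miR-1, miR-200c and miR-381, 0 had both assays called. miR-214, of fibroblasts, was lower by both, at -0.70 ± 0.27 and -0.57 ± 0.30, without a call.

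**Figure D4:**
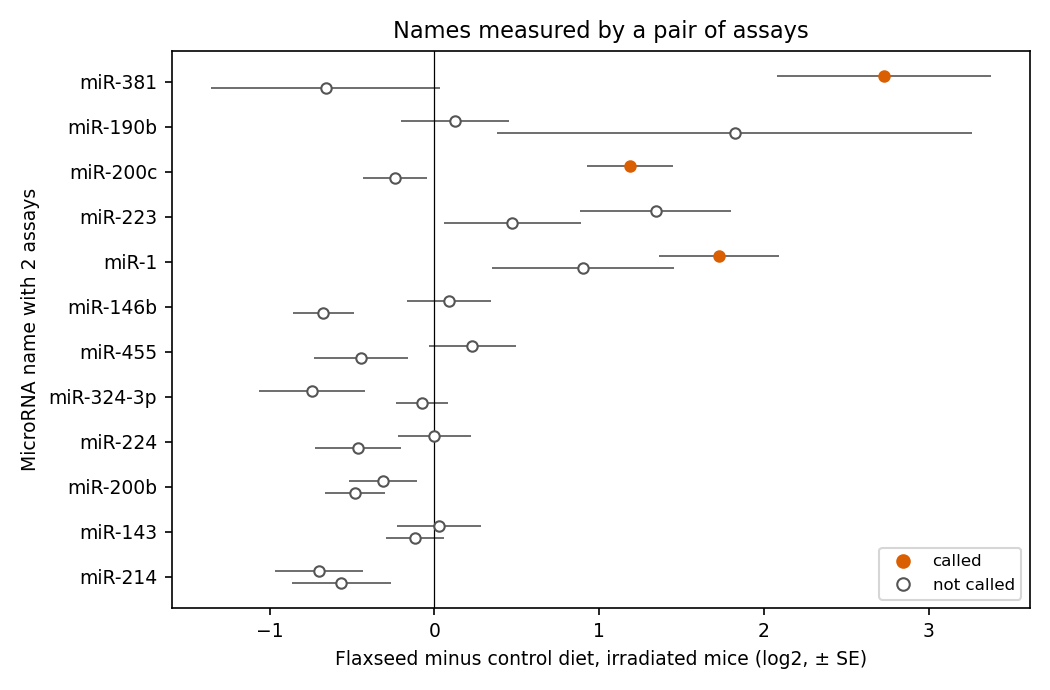
Diet difference in irradiated mice (horizontal axis, log2, with bars of 1 SE) for the 12 microRNA names with 2 tested assays, ordered by the gap between them. The assays of miR-381 and miR-200c lie on opposite sides of 0, those of miR-1 on the same side.

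Other lists of cell type and tissue response microRNAs held no call, where 5.07% of all assays were called. In the inflammation list 0 of 10 tested assays were called, with miR-21, raised in inflamed and fibrotic tissue, at 0.44 ± 0.36. The let-7 family had 0 of 8, with let-7b at -0.65 ± 0.27 and lower in all 3 flaxseed mice. In this family 3 assays were lower without overlap and 1 was higher, let-7g at 0.23 ± 0.25. The miR-29 family, which represses collagen genes, had 0 of 3, with miR-29c at 1.47 ± 1.30 and overlapping groups. Fibroblast assays had 0 of 4, smooth muscle 0 of 3 (miR-145 at 0.30) and endothelial 0 of 2 (miR-126 at 0.47 ± 0.29). Ciliated cells had 0 of 5. Neural tissue had 0 of 4 and a median of -0.01, with miR-124a lower in all 3 flaxseed mice at -1.83 ± 0.60. The rest of that list overlapped, with miR-137 at 0.71 ± 0.60, miR-128a at 0.10 ± 0.21 and miR-138 at -0.13 ± 0.32. The other arm of miR-9, outside the list, was higher without overlap at 1.62 and not called. The Sfmbt2 cluster had 0 of 5, with a median of -0.29. miR-210, the main hypoxia microRNA, was at 0.06 ± 0.22.

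The diet difference in irradiated mice was then set against that in unirradiated mice, which shares no mice with it. The unirradiated flaxseed mice had 281 to 297 detected assays and a mean Crt of 20.07 to 21.20. The unirradiated control mice had 308 to 310 detected assays and a mean Crt of 19.85 to 20.09. The part of this gap in the unirradiated differences and the interaction was not tested. miR-34a was higher with flaxseed in both settings, at 3.66, 3.66 and 3.46 in unirradiated flaxseed mice against 2.07, 2.43 and 2.44 on control diet, a difference of 1.28 ± 0.17 (limma adjusted p = 0.00453). Its interaction of -0.57 ± 0.24 was not called (limma adjusted p = 0.145). miR-34a was the single member of the 15 called in unirradiated mice too, where 36 of 296 (12.2%) were called and 84 (28.4%) had no overlap. miR-150 was at -0.96 ± 0.29 there (limma adjusted p = 0.0565), in the same direction, and its interaction was -0.74 ± 0.41.

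For 5 of the 15, the difference between the diet effects was itself called: miR-503 (-1.31 ± 0.27), miR-672 (-1.46 ± 0.31), miR-421 (1.23 ± 0.28), miR-30a-3p (1.36 ± 0.35) and miR-1903 (-2.42 ± 0.62). The limma adjusted p of these interactions ran from 0.0273 to 0.0434, and 25 of 296 assays (8.45%) had a called interaction. The split in 4th decimals follows this contrast exactly, being high in irradiated flaxseed and unirradiated control mice and low in the other groups. Whatever made the split thus cannot be told apart from the interaction. In unirradiated mice these 5 were at -0.29, 0.49, 0.20, -0.14 and 0.11. miR-342-3p, for which the diet difference was -0.01 ± 0.23 without radiation, had an interaction of -1.14 ± 0.32 that was not called (limma adjusted p = 0.0557). Of the 15, 10 had the same sign in unirradiated mice (66.7%), against 44.9% of all 296 assays. Over all assays the diet differences with and without radiation had a Spearman correlation of -0.02, as a description across assays. The median interaction over all assays was -0.26, with 14 calls higher and 11 lower. It was -0.52 when centred on the median assay (10 higher, 20 lower), 0.03 when scaled to the control RNAs and 0.37 with no normalization (23 higher, 1 lower). No interaction was called when levels were scaled to the control RNAs (0, with 62 at an unadjusted p under 0.05), and the count was also 0 when mouse 7, 8 or 18 was left out. Leaving out mouse 17 gave 2, mouse 2 gave 12 and mouse 9 gave 16.

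**Figure D5:**
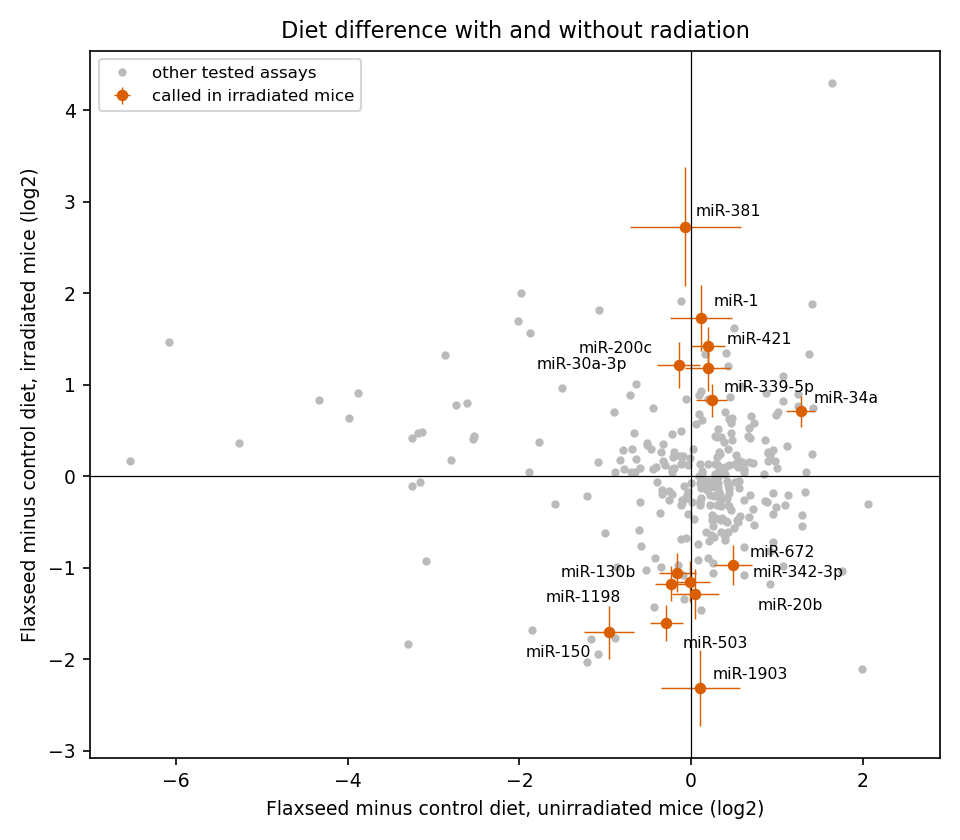
Diet difference in irradiated mice (vertical axis) against that in unirradiated mice (horizontal axis), both log2, for 296 assays; orange points with bars of 1 SE passed the test in irradiated mice. Most orange points lie near 0 on the horizontal axis, while miR-34a lies at 1.28 across and 0.71 up.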

How the data were processed

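The authors deposited relative threshold cycles (Crt), which fall by 1 on a log2 scale as template doubles, and a table of normalized values on the log2 scale that names the microRNAs. Per the labels' protocols, RNA was reverse transcribed and pre-amplified with primer pools A and B of the Megaplex set and run on OpenArray slides in a QuantStudio instrument. The sources used here do not say how Crt was called. A cycle was read as 1 log2 unit, which assumes doubling in each cycle. Names were carried to the Crt table by matching ranks within every mouse, for 322 of 326 assays with a Crt; the other 4, with 40 values, were left out. With no read depth, precision rests on the number of mice and the Crt limit.

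A Crt under 28 counted as detected, and other reactions were treated as missing (36 of 296 tested assays). Each mouse's mean over 260 assays was subtracted. limma 3.58.1 in R 4.3.3 fitted 4 group means over 12 mice (8 residual and 2.41 prior degrees of freedom). The fit was also run on simulated data with independent noise and known shifts. Those data held no batch or pool difference, so they cannot show how such differences bear on the calls. The comparisons were flaxseed minus control diet in irradiated mice, the same in unirradiated mice, and their difference (the interaction). Named microRNAs are all calls, the next assays by p up to 20, their second assays, other arms and seed relatives, 16 fixed microRNAs and members of the lists. Members and lists were chosen with earlier results of these data known. The labels call the samples separate mice.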

Additional observations from a re-analysis of the deposited data

Results flagged for a closer look

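The diet difference was unlike in irradiated and unirradiated mice, by a called interaction, for miR-503 (-1.31), miR-421 (1.23), miR-1903 (-2.42), miR-30a-3p (1.36), miR-672 (-1.46) and miR-21 (2.98). The share of readings with a 4th decimal differs between the groups in the pattern of this interaction. Whatever made that difference cannot be told apart from the interaction. miR-21 differs from the others in that its diet difference was -2.53 ± 0.40 in unirradiated mice, where it was not detected in mouse 11, and 0.44 ± 0.36 in irradiated mice. miR-339-3p, outside the test, had a Crt in 3 irradiated flaxseed mice and in 0 irradiated control mice, and was detected in 2 of 3 unirradiated control mice and 1 of 3 unirradiated flaxseed mice. Among the control RNAs, which were also outside the test, the small cytoplasmic RNA Y1 was higher in irradiated flaxseed mice by 1.28 in pool A and by 0.82 in pool B relative to the microRNA mean, without overlap between the groups (exact permutation p of 0.1 each).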

How the results depend on the processing

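The count of 15 calls in irradiated mice stayed within 1.5 times under quantile normalization, the median assay, scaling within each pool, the authors' normalized values, other Crt limits and filters, and the trended robust fit. The assays called were not all the same. Of 14 calls under quantile normalization 12 were among the 15, and of 12 with the authors' normalized values 11 were. Scaling to the control RNAs gave 4 and no normalization 1, against 48 with the 6 irradiated mice alone, 25 without the 3 unirradiated flaxseed mice and 66 with array weights; in the last 3 fits all 15 were called again. Leaving out each mouse in turn gave 3 to 24. miR-503, miR-421 and miR-1198 were called without any of the 12 mice in turn, and miR-150 lost its call without mouse 7 or 8 (limma adjusted p up to 0.0578). miR-20b lost it without mouse 7, 8 or 9 (up to 0.0784), miR-342-3p without 7, 8, 17 or 18 (up to 0.0781), miR-130b without 7, 8, 15 or 17 (up to 0.0844), and miR-1903 without 7, 8, 17 or 18 (up to 0.0664). miR-1 lost it without 7, 8, 9, 15 or 17 (up to 0.0884), miR-672 without 7, 8, 15, 17 or 18 (up to 0.128) and miR-381 without the same mice (up to 0.152). miR-30a-3p, miR-339-5p, miR-200c and miR-34a lost it without any of the 6 irradiated mice (up to 0.0857, 0.106, 0.110 and 0.164). miR-34a was called in 17 of 30 alternatives and miR-339-5p in 18, and no called difference changed sign in an alternative that gave it a value. The interaction count of 25 became 0 when scaled to the control RNAs, 7 with the authors' normalized values, 16 with Crt under 30, 16 with no Crt limit, 14 with assays detected in all 12 mice, 9 with undetected reactions set to 28, 12 without moderation and 60 at an adjusted p under 0.10, and ran from 0 to 35 with each mouse left out. The difference of 3.67 detected assays ran from 3.33 to 4.33 with each mouse left out and was 2.00 at Crt under 26. The cause of these changes was not tested, beyond the fewer mice in the fits that leave some out. No paired analysis was possible because the groups share no mouse numbers.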

Other observations

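Further values of the irradiated groups lay outside the calls. miR-1894-3P had the largest difference of all tested assays, 4.30 ± 3.15 without a call, at 10.13, 8.62 and 9.10 in flaxseed mice and 7.98, 3.96 and 3.01 in control mice. It ranged as widely without radiation, at 10.37, -1.55 and 5.49 on flaxseed and 9.72, 1.06 and -1.38 on control diet. U87, a small RNA of the nucleus used as a control, was at 0.74, 0.46 and 0.66 in flaxseed mice and 1.59, 1.37 and 1.38 in control mice in pool A. The difference was -0.825 there and -0.831 in pool B, without overlap (exact permutation p of 0.1 each). U6, snoRNA135 and snoRNA202 had overlapping groups in both pools. miR-2135, too rarely detected in unirradiated control mice to be tested, was lower in all 3 irradiated flaxseed mice than in the irradiated control mice, with a difference of -1.14 (exact permutation p of 0.1).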
